A study of Mus musculus with 6 samples.

Results

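Ribosomal protein genes were followed in lacrimal glands (LG), which supply the aqueous part of the tear film, of mice with type 2 diabetes. Genes were taken from the gene table by name. Symbols starting with Rpl, Rps or Rplp, without the S6 kinases, gave 89 genes of the cytosolic ribosome, and symbols starting with Mrpl or Mrps gave 78 genes of the mitochondrial ribosome, together 167 of the 12491 genes listed. The cytosolic class held 55 large subunit and 34 small subunit names. By a reading of their symbols, 76 were core ribosomal proteins, 6 were retrocopies, which are intronless copies marked -ps, and 7 were paralogs or other genes with a matching name. The mitochondrial class held 49 large subunit and 29 small subunit names, of which 77 were core.

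Poly(A) RNA was sequenced from 3 T2DM and 3 vehicle libraries of whole LG. All mice were C57BL/6 males with a labelled age of 24 weeks. The study's methods instead give this span as the time from the last STZ injection to collection, in which case the mice were older than labelled. T2DM mice were kept on a high-fat diet (HFD) and received intraperitoneal streptozotocin (STZ), a toxin of the insulin-producing beta cells, whereas vehicle mice had citrate buffer injections and normal chow. Diet, STZ and diabetes therefore differed together between the groups and cannot be told apart, and the labels do not say whether each library came from a separate animal. If libraries shared animals, the p-values below would measure technical spread only.

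A ribosome is built from rRNA and a set of proteins that are needed in equal numbers, 1 copy of most proteins per particle. Cytosolic ribosomes translate the mRNA of nuclear genes, and in a secretory gland most of their output enters the endoplasmic reticulum. Mitochondrial ribosomes translate only the few proteins encoded by mitochondrial DNA, although their own proteins are encoded in the nucleus, made in the cytosol and imported. Most mRNAs of cytosolic ribosomal proteins begin with a run of pyrimidines, the 5′ TOP motif, through which growth signals acting on mTOR control their translation, and mRNAs of mitochondrial ribosomal proteins mostly lack it.

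The start sites in the LG members could be compared with that background. RefSeq promoter sequences of build GRCm38.p6 matched 132 of the 167 members, 63 cytosolic and 69 mitochondrial. Within 50 bases on either side of the start, a run of at least 10 C or T letters on the gene strand was found in 65.1% of the cytosolic genes, in 17.4% of the mitochondrial genes and in 18% of all 27025 promoters in the table. This window was chosen after the sequences had been seen. A run of at least 8 letters that included the annotated first base was found in 23.8% of the cytosolic, 1.45% of the mitochondrial and 3.84% of all promoters. The genes shown here are those past the test described below, where the table had an entry, and a few members named for their roles. Each stretch runs from 50 bases before the start to 20 bases after it, and capitals mark the longest pyrimidine run within it. Because the stretch ends 20 bases after the start, a run further downstream is counted in the shares above but is not printed.
Rps25, chr9:44407664-44407733, plus strand: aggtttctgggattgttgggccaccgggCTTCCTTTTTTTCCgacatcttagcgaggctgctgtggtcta
Rps27, chr3:90213629-90213698, minus strand: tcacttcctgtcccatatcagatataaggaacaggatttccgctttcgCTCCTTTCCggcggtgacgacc
Rps28, chr17:33824543-33824612, minus strand: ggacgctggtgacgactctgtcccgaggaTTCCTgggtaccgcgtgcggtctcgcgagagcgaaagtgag
Rps19, chr7:24884542-24884611, plus strand: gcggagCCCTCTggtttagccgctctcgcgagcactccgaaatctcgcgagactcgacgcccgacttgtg
Rps6, chr4:86857348-86857417, minus strand: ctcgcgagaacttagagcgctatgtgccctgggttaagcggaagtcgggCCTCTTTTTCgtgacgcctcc
Rpl5, chr5:107900478-107900547, plus strand: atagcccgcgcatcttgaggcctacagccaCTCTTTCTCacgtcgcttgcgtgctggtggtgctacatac
Mrpl45, chr11:97315666-97315735, plus strand: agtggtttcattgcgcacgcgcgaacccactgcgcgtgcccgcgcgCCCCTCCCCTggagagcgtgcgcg
Mrps12, chr7:28741802-28741871, minus strand: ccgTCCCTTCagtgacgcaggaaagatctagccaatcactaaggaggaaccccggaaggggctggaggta
Mrpl12, chr11:120484587-120484656, plus strand: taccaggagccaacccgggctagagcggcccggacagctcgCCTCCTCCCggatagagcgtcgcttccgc
Mrpl18, chr17:12916072-12916141, minus strand: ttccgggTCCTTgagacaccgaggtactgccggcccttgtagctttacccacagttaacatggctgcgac
The run was 14 letters long in Rps25, 10 in Rps6 and 9 in Rps27 and Rpl5, and 5 in Rps28. In Rps19 it was 6 letters within the stretch shown and 11 within 50 bases on either side of the start. Among the mitochondrial genes it was 10 letters in Mrpl45, 9 in Mrpl12, and 7 in Mrps12, and in Mrpl18 it was 5 letters within the stretch shown and 6 within the wider window. The run in capitals included the annotated first base only in Rps27, Rps6 and the mitochondrial Mrpl45. In the other genes shown, Rps25 and Rpl5 among them, it lay before that base.

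Both classes shared other letters that the naming did not use. Motifs were searched on both strands over the 250 bases before and 50 bases after the start. The ETS core CCGGAAG was present in 36.5% of the cytosolic and 34.8% of the mitochondrial promoters, against 9.18% of all promoters and 18.5% of those of the 9688 genes of the gene table that matched. GCCATNTT, the YY1 motif, stood in 19% and 30.4%, against 6.22% and 8.74%. The E-box CACGTG was found in 7.94% and 7.25%, against 7.22% and 10.2%, and the TATA letters TATAAA in 9.52% and 5.8%, against 14.1% and 7.35%. The palindromic NRF1 motif occurred in 1.59% of the cytosolic and 4.35% of the mitochondrial promoters, against 0.981% and 2.09%. Such matches describe letters and no bound factor.

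Levels are given as FPKM, sequenced fragments of a gene relative to its transcript length and to the library total, which the authors computed and which can be compared between genes because length is divided out. Across all 6 libraries, the cytosolic genes had a median of 145.7 FPKM and the mitochondrial genes a median of 8.652 FPKM. Of the 89 cytosolic genes, 58 lay above 100 FPKM and 83 above 10 FPKM, whereas 35 of the 78 mitochondrial genes lay above 10 FPKM. The highest cytosolic gene was Rplp1, a protein of the stalk that recruits elongation factors, with a mean of 842 FPKM. Next came Rpl17, a protein near the exit of the peptide tunnel, and Rps3a1, a small subunit protein. Among core cytosolic genes the lowest was Rps15a at 29.2 FPKM, 28.8-fold below Rplp1.

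**Figure D1:**
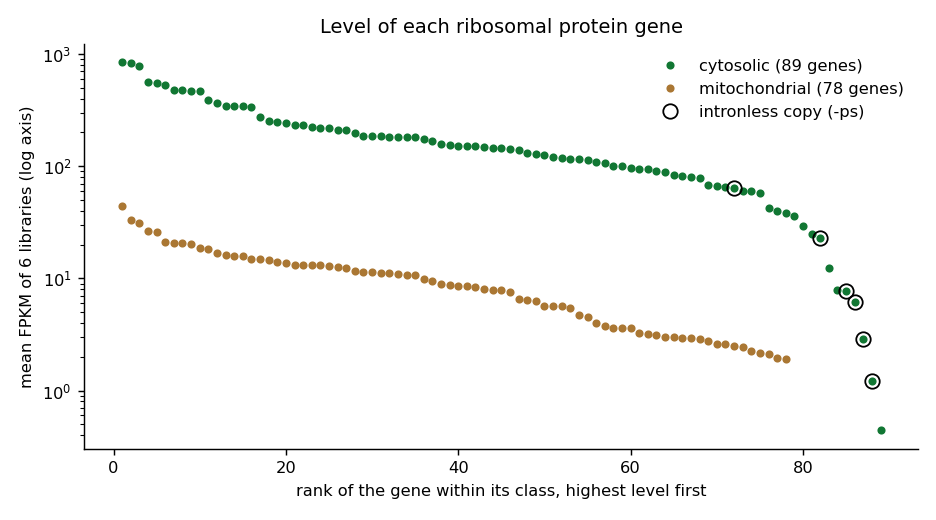
Mean FPKM over all 6 libraries (log axis) of each ribosomal protein gene, ranked from the highest within its class, with green points for the 89 cytosolic and brown points for the 78 mitochondrial genes. Open rings mark the 6 retrocopies; the cytosolic curve lies above the mitochondrial curve at every rank they share, and its last ranks hold mostly retrocopies and paralogs.

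In the mitochondrial class the highest level was that of Mrps21, a small subunit protein, with a mean of 44.4 FPKM, and the lowest was that of Mrps35, also of the small subunit, with 1.93 FPKM, a 23-fold range. The 10 highest genes carried 35.5% of the summed FPKM of the cytosolic class and 32.4% of that of the mitochondrial class. Mrps21 varied strongly within groups, with 38.2, 31.9 and 60.03 FPKM in vehicle replicates 1 to 3 and 38.3, 61.9 and 36.0 FPKM in T2DM replicates 1 to 3. Its groups overlapped, and its log2 fold change was 0.07 (SE 0.27, limma adjusted p = 0.871).

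Before the groups were compared, the libraries were examined. Secretoglobins, small secreted proteins of exocrine glands, held 44.9 to 51.8% of the summed FPKM in vehicle libraries and 37.3 to 41.5% in T2DM libraries. Because FPKM is a relative measure, the FPKM of other genes can move with such a share, but its part in the values below was not tested. The median log2 fold change of all 12135 genes tested was 0.16 as deposited. It was also 0.16 after rescaling without secretoglobins, and 0.25 after rescaling without the 10 most abundant genes. Scaling by the median of ratios, which brings the typical gene near 0 by its construction, gave 0.00. As deposited, 1271 genes (10.5%) were called higher and 206 (1.7%) lower in T2DM by limma at an adjusted p under 0.05, and after median of ratios scaling 477 and 481. Vehicle replicate 1 stood apart, with a summed level of salivary gland markers of 2196 FPKM against 4.13 to 17.0 FPKM in the other libraries. Acinar markers were present in all libraries at summed levels of 2403 to 3294 FPKM. Summed marker levels of duct cells (655 to 710 against 917 to 1140 FPKM), B cells (6.11 to 8.38 against 12.5 to 21.7 FPKM) and plasma cells (192 to 290 against 315 to 396 FPKM) were higher in all T2DM libraries, and those of erythroid cells lower (351 to 419 against 196 to 317 FPKM). Sums of T cell, macrophage, fibroblast and endothelial markers overlapped between groups, and limma called 0 of these genes. The only adipocyte marker listed was lower (3.01 to 4.80 against 0.675 to 2.37 FPKM), without a call. Skeletal muscle markers were at 0.0325 to 0.179 FPKM in vehicle and 0.235 to 5.67 FPKM in T2DM, highest in T2DM replicate 3. Of the tested markers, limma called 5 of 9 duct and 3 of 7 B cell genes higher, 3 of 5 erythroid genes lower and 0 of 7 plasma cell genes, of which 1 was higher and 1 lower at an unadjusted p under 0.05. Their part in the results below was not tested, and in bulk tissue fewer cells of a type and less RNA per cell cannot be told apart.

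To learn whether the pool of ribosomal protein mRNA differed in T2DM, the FPKM of each class were summed within each library. The cytosolic sum was 17160, 15088 and 15482 FPKM in the vehicle libraries and 17966, 18557 and 17213 FPKM in the T2DM libraries. All T2DM sums lay above all vehicle sums, with means of 15910 ± 1100 and 17912 ± 674 FPKM (SD, n = 3 per group), although vehicle replicate 1 reached nearly the lowest T2DM value. The mitochondrial sum was 796, 773 and 837 FPKM in vehicle and 816, 853 and 775 FPKM in T2DM. These groups overlapped, with means of 802 ± 32.8 and 815 ± 39.0 FPKM.

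The ratio of both sums does not depend on how a library is scaled. It was 21.6, 19.5 and 18.5 in vehicle and 22.0, 21.8 and 22.2 in T2DM, so that cytosolic mRNA outweighed mitochondrial mRNA in every T2DM library by more than in any vehicle library. The means were 19.9 ± 1.57 and 22.0 ± 0.228, a difference of 2.13. Without vehicle replicate 1 the difference was 2.98, and without vehicle replicate 3 it was 1.44. With class medians in place of sums, the ratios were 16.9, 14.8 and 14.3 in vehicle and 17.4, 17.7 and 16.7 in T2DM, and the groups overlapped through vehicle replicate 1. No p is given for these ratios, and with 3 libraries per group an exact test could not fall below 0.10.

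**Figure D2:**
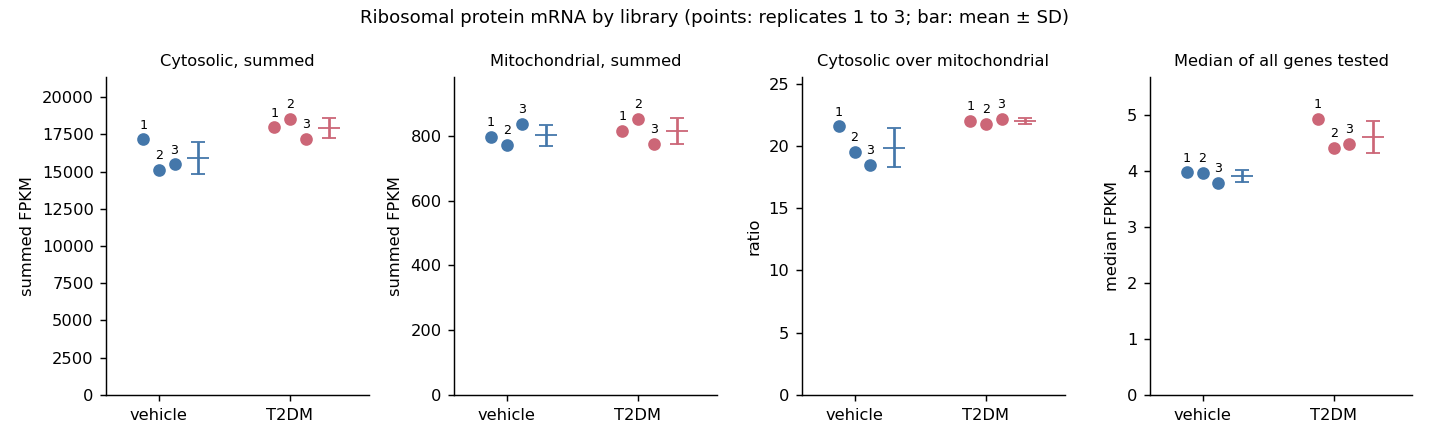
Summed FPKM of the cytosolic and of the mitochondrial class, the ratio of both sums, and the median FPKM of all genes tested, for each vehicle (blue) and T2DM (red) library, numbered by replicate, with mean ± SD bars beside the points. The T2DM ratios lie between 21.8 and 22.2 and all vehicle ratios below them, while the median of all genes is higher in every T2DM library.

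Each class was also set against all genes. The median FPKM of all genes tested was 3.97, 3.95 and 3.77 in vehicle and 4.93, 4.41 and 4.48 in T2DM. The cytosolic median divided by that median was 36.0, 31.9 and 34.3 in vehicle and 31.4, 36.3 and 33.1 in T2DM, so the groups overlapped and the class kept its place among all genes. The mitochondrial median divided by it was 2.14, 2.16 and 2.39 in vehicle and 1.81, 2.05 and 1.98 in T2DM. The T2DM libraries all lay below the vehicle libraries, with means of 2.23 ± 0.139 and 1.95 ± 0.125. Shares of the summed FPKM ran the other way. The cytosolic share was 2.04 ± 0.286% in vehicle and 2.72 ± 0.204% in T2DM, and the mitochondrial share was 0.103 ± 0.00641% and 0.124 ± 0.00960%, with all T2DM libraries above in both classes. The total in these shares, of which secretoglobins hold the part given above, was itself lower in every T2DM library, at 723460, 787360 and 838940 FPKM in vehicle and 611640, 693430 and 678620 FPKM in T2DM. The mitochondrial class was thus lower relative to the median gene and higher relative to the summed FPKM.

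Gene by gene, 166 of the 167 members passed the filter on low values and were tested. The one below it was Rpl3l, the muscle paralog of Rpl3, at 0.40, 0.35 and 0.46 FPKM in vehicle and 0.15, 0.84 and 0.46 FPKM in T2DM. Of the 88 cytosolic genes tested, 6 (6.82%) were higher and 1 (1.14%) was lower in T2DM, below the shares of all genes tested, 10.5% and 1.7%. Of the 78 mitochondrial genes, 1 (1.28%) was higher and 0 were lower, against the same background. At an unadjusted p under 0.05 limma gave 28 higher and 4 lower cytosolic genes (31.8% and 4.55%) and 11 higher and 4 lower mitochondrial genes (14.1% and 5.13%), beside 28.5% and 4.57% of all genes.

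The fold changes of the cytosolic genes lay close together. Their median log2 fold change was 0.16, equal to that of all genes at 2 decimals, and their quartiles were 0.07 and 0.24, an interquartile range of 0.17 against 0.32 for all genes tested. The T2DM libraries lay above the vehicle libraries for 37 cytosolic genes (42%) and below them for 3 (3.41%), while the shares over all genes were 33.8% and 6.1%. Of the 76 core genes, 36 had all T2DM libraries above and 0 had them below. A positive log2 fold change was found in 72 core genes, beside 9080 of all 12135 genes tested. Against the median of all genes, 42 core genes lay above and 34 below. The mitochondrial median was 0.05, with quartiles of -0.08 and 0.15. Groups were separate for 17 mitochondrial genes with T2DM above (21.8%) and for 6 with T2DM below (7.69%), and 60 of the 78 genes lay under the median of all genes.

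The large and the small subunit had similar medians. The median log2 fold change was 0.16 in the large and 0.16 in the small cytosolic subunit, and 0.05 and 0.04 in the mitochondrial subunits. The summed FPKM of the large over the small cytosolic subunit was 1.67, 1.71 and 1.73 in vehicle and 1.74, 1.71 and 1.74 in T2DM, and the groups overlapped. Genes of similar level did not share the mitochondrial median either, as the 9910 genes with a mean of 1 to 40 FPKM had a median of 0.16. The 925 genes of at least 30 FPKM, the range of nearly all core cytosolic genes, had a median of 0.09, with 12% called higher and 7.03% lower.

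**Figure D3:**
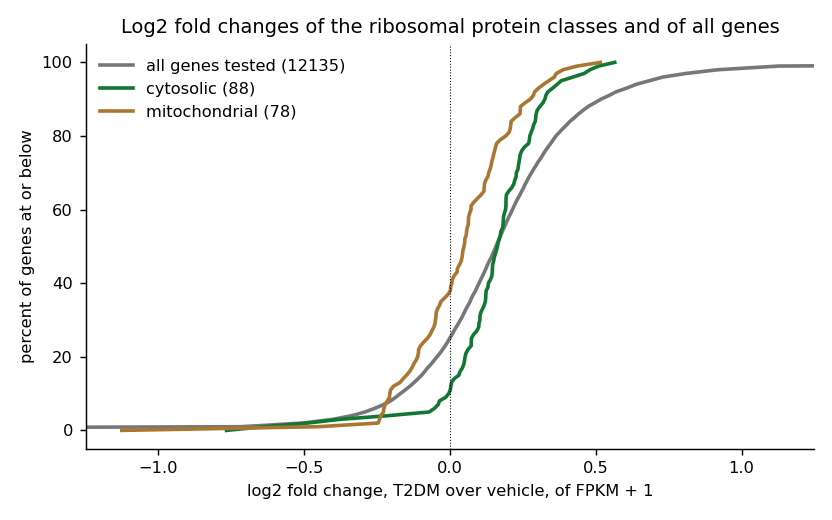
Cumulative share of genes (percent) at or below each log2 fold change of FPKM + 1, T2DM over vehicle, for all 12135 genes tested (grey), the 88 cytosolic (green) and the 78 mitochondrial genes (brown). The green curve crosses the grey one near the common median of 0.16 and is steeper, whereas the brown curve is shifted to the left with a median of 0.05.

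The sign of the class medians depended on the scale, while the cytosolic median stayed above the mitochondrial median. After scaling by the median of ratios, the medians were -0.03 for the cytosolic, -0.13 for the mitochondrial class and 0.00 for all genes. Then 0 cytosolic genes were called higher and 2 lower, and 0 mitochondrial genes higher and 4 lower, beside 3.93% and 3.96% of all genes. Rescaling without the 10 most abundant genes moved the medians to 0.29 and 0.15 and gave 37 higher cytosolic and 14 higher mitochondrial calls, beside 27.6% of all genes. Over the 13 other filters, pseudocounts, scalings and sets of libraries, the cytosolic median lay between 0.05 below and 0.06 above that of all genes (-0.0484 to 0.0603). The mitochondrial median always lay below that of all genes (-0.154 to -0.0911), and the cytosolic minus the mitochondrial median lay between 0.091 and 0.196. A scaling shifts all genes by nearly the same amount, and the filters kept nearly the same members, so these could hardly change the order. With 1 library left out in turn, the difference of class medians also ran from 0.091 to 0.196. As deposited it was 0.1146, against a pooled SD between libraries of 0.0904.

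**Figure D4:**
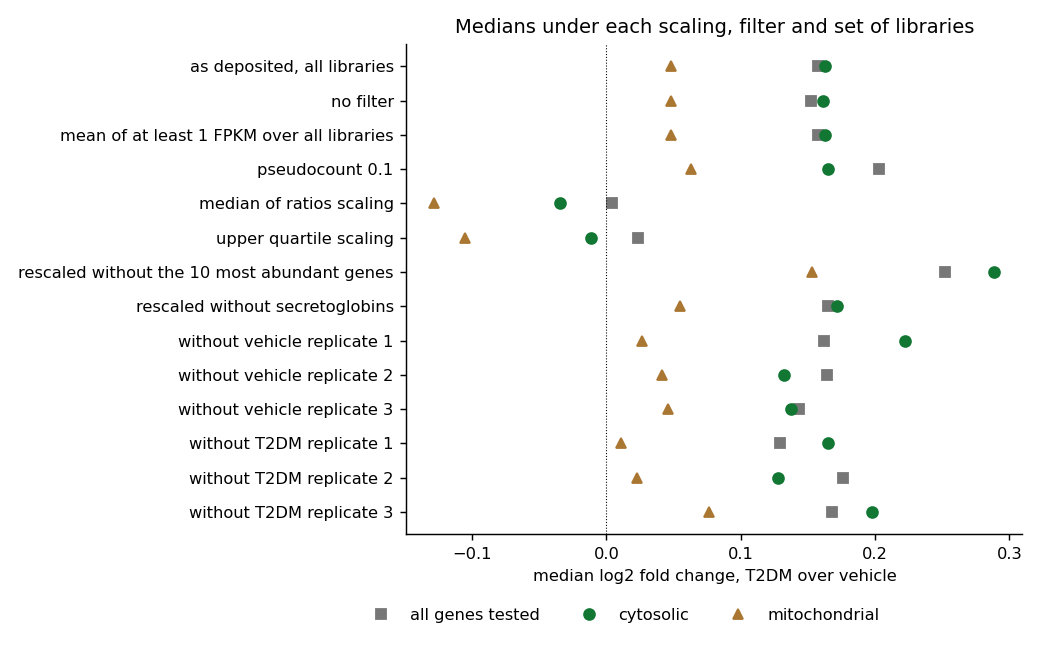
Median log2 fold change, T2DM over vehicle, of all genes tested (grey squares), the cytosolic class (green circles) and the mitochondrial class (brown triangles) as deposited and under each of the 13 alternatives, 1 per line. The triangle lies to the left of the square and of the circle on every line, while the dotted line at 0 falls to the right of the circle with median of ratios and upper quartile scaling.

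Among small subunit proteins, 4 genes were higher in T2DM as deposited. Rps25, a protein of the small subunit head that certain viral mRNAs need for initiation, lies at chr9:44407139-44410427. Its level was 70.2, 60.3 and 61.3 FPKM in vehicle and 76.0, 111 and 101 FPKM in T2DM, a log2 fold change of 0.57 (SE 0.15, limma adjusted p = 0.0459). All T2DM libraries lay above all vehicle libraries, but T2DM replicate 1 was far closer to the vehicle level than T2DM replicates 2 and 3. Rps25 overlaps Trappc4 and Ccdc84 on the opposite strand. Rps28 (chr17:33819027-33824562), near the exit channel of the mRNA, stood at 57.2, 51.6 and 41.7 FPKM in vehicle and 76.1, 67.1 and 69.8 FPKM in T2DM. The groups were separate, and the log2 fold change was 0.50 (SE 0.12, limma adjusted p = 0.0414). Rps28 overlaps Kank3 on the opposite strand, and the libraries were prepared with a stranded kit, but whether strand was used in counting is not given in the sources used here.

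Rps27 (chr3:90212522-90213651), a zinc finger protein of the small subunit, was measured at 176, 147 and 148 FPKM in vehicle and 219, 227 and 207 FPKM in T2DM. Its log2 fold change was 0.47 (SE 0.10, limma adjusted p = 0.0291), and vehicle replicate 1 was the nearest to the T2DM libraries. The copy Rps27rt is identical to Rps27 over 341 aligned bases, so reads of both cannot be told apart there. Rps19 (chr7:24884371-24889806), mutated in human Diamond-Blackfan anaemia, was measured at 32.7, 33.0 and 30.7 FPKM in vehicle and 39.2, 40.8 and 38.9 FPKM in T2DM. The spread within groups was small, and the log2 fold change was 0.29 (SE 0.08, limma adjusted p = 0.0481). Other small subunit genes were chosen for their roles. Rps6, the substrate of the S6 kinases that growth signals activate, had 330 ± 20.6 FPKM in vehicle and 350 ± 13.0 FPKM in T2DM with overlapping groups (SD, n = 3, log2 fold change 0.08, limma adjusted p = 0.506). Rps3, which lines the entry of the mRNA channel, had 91.2 ± 7.37 and 97.8 ± 3.34 FPKM (0.10 on the log2 scale, limma adjusted p = 0.434), also overlapping.

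In the large subunit, 2 core genes were higher. Rpl36 (chr17:56613395-56614243) had 454, 370 and 365 FPKM in vehicle and 566, 545 and 511 FPKM in T2DM, with a log2 fold change of 0.45 (SE 0.11, limma adjusted p = 0.0385). Vehicle replicate 1 was again the highest of its group, and the groups were separate. Rpl23a (chr11:78180932-78183584), which forms the docking site of the signal recognition particle at the exit of the peptide tunnel, had 432, 396 and 416 FPKM in vehicle and 524, 561 and 506 FPKM in T2DM. Its log2 fold change was 0.35 (SE 0.08, limma adjusted p = 0.0381), and it overlaps Tlcd1 on the opposite strand. Rpl10 (chrX:74270812-74273135), which joins the large subunit late in its maturation, was at 197, 168 and 153 FPKM in vehicle and 222, 230 and 222 FPKM in T2DM, with separate groups and an adjusted p of 0.053 by limma that missed the threshold.

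None of the 6 higher cytosolic genes was called after median of ratios scaling, where their log2 fold changes lay between 0.10 for Rps19 and 0.37 for Rps25 and limma adjusted p between 0.121 and 0.459. The number of higher cytosolic genes also changed with single libraries, as did the share of all genes called higher. The number was 6 without vehicle replicate 1, of which Rps27, Rps28 and Rpl36 were also called with all libraries. It was 0 when vehicle replicate 2 or 3 or T2DM replicate 2 was left out. Leaving out T2DM replicate 1 (Rps25) or T2DM replicate 3 (Rps27) gave 1. The share of all genes was 10.5% with all libraries, and 3.82%, 1.67% and 0.206% without vehicle replicates 1 to 3. It was 2.16%, 6.26% and 7.31% without T2DM replicates 1 to 3. Vehicle replicate 1, the library with salivary markers, was the highest of the vehicle libraries for 75 of the 89 cytosolic genes and for 23 of the 78 mitochondrial genes. Within the T2DM group, replicate 2 was the highest for 65 and replicate 3 the lowest for 68 of the 89 cytosolic genes. For the 78 mitochondrial genes these counts were 35 and 39. The cytosolic genes thus varied together between libraries of the same group as well. Whether all genes moved in the same way between these libraries was not tested.

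**Figure D5:**
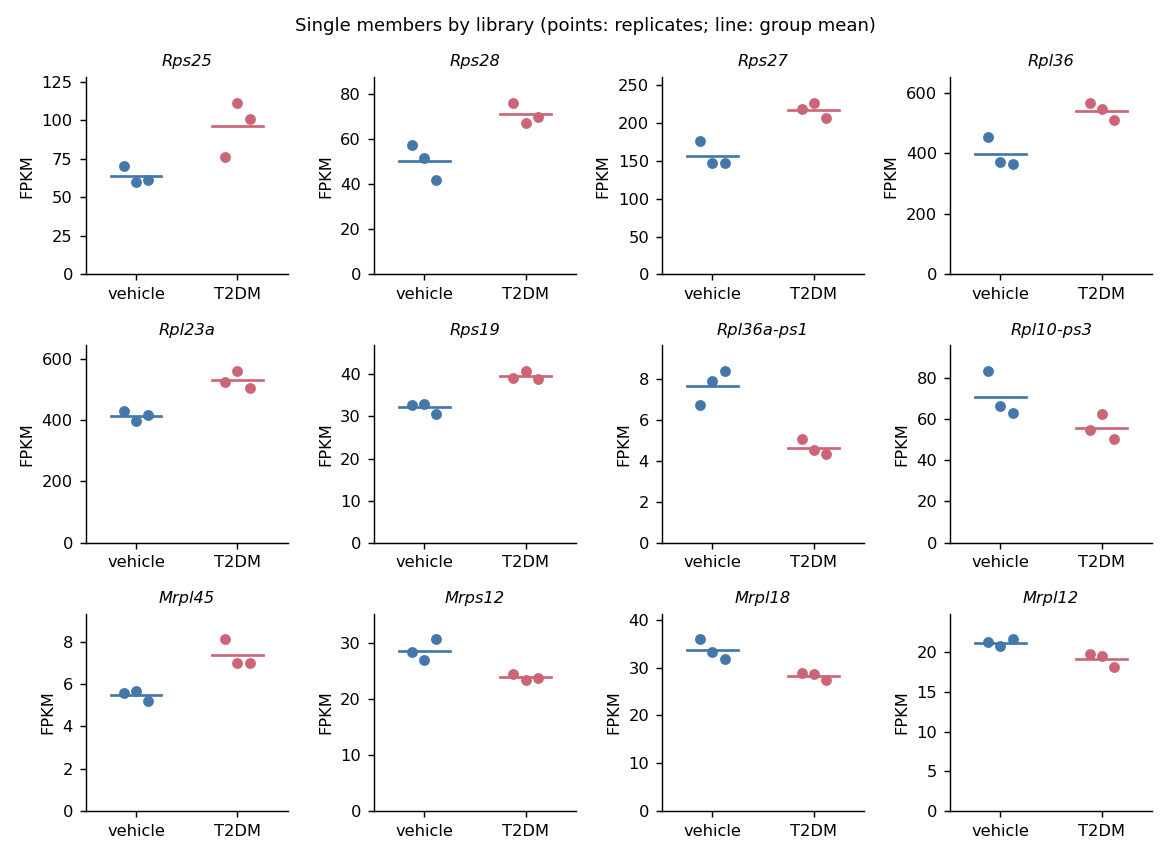
FPKM of 12 ribosomal protein genes in each vehicle (blue) and T2DM (red) library, replicates 1 to 3 from left to right, with a line at the group mean; every axis starts at 0. The groups do not overlap in any panel, with T2DM above for Rps25, Rps28, Rps27, Rpl36, Rpl23a, Rps19 and Mrpl45 and below for Rpl36a-ps1, Rpl10-ps3, Mrps12, Mrpl18 and Mrpl12.

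The proteins of the stalk, which recruits translation factors to the large subunit, did not pass the test. Rplp0, its base and a common reference gene, had 482 ± 32.4 FPKM in vehicle and 468 ± 10.2 FPKM in T2DM (SD, n = 3, log2 fold change -0.04, limma adjusted p = 0.757). Rplp1 had 821 ± 49.0 and 864 ± 51.0 FPKM (0.07, limma adjusted p = 0.603), and both genes overlapped between groups. Rplp2, their partner, had 70.9 ± 5.23 and 84.8 ± 2.91 FPKM with all T2DM libraries above all vehicle libraries (0.26, limma adjusted p = 0.0861). Rpl5 and Rpl11 bind the 5S rRNA and, when free, Mdm2, the ubiquitin ligase of p53. Rpl5 had 167 ± 3.80 and 180 ± 4.83 FPKM with separate groups, whereas Rpl11 had 84.0 ± 3.14 and 92.9 ± 6.64 FPKM with overlapping groups, and their limma adjusted p were 0.362 and 0.281. Rpl38, which mouse embryos need for the translation of certain Hox mRNAs, had 318 ± 24.5 and 374 ± 24.2 FPKM, with separate groups and a limma adjusted p of 0.13. The abundant Rpl17 had 759 ± 54.3 and 916 ± 16.8 FPKM, again with separate groups (0.27, limma adjusted p = 0.0776), while Rps3a1 had 781 ± 35.9 and 799 ± 67.4 FPKM with overlap (0.03, limma adjusted p = 0.845).

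Paralogs could be set beside the genes they resemble. Rpl22, needed for T cell development in mice, had 56.3 ± 3.87 and 64.5 ± 6.67 FPKM, and its paralog Rpl22l1 had 36.5 ± 4.22 and 40.8 ± 2.95 FPKM (SD, n = 3 per group). Both pairs of groups overlapped, with log2 fold changes of 0.19 and 0.16. Rps27l, a p53-induced paralog of Rps27, had 167 ± 24.9 and 200 ± 5.65 FPKM with separate groups (0.27, limma adjusted p = 0.154). The other names of this kind, Rpl36al, Rpl7l1, Rps27rt, Rps19bp1 (a cofactor of the deacetylase Sirt1 that binds Rps19) and Mrps36 (now known as a subunit of the alpha-ketoglutarate dehydrogenase complex), had overlapping groups and log2 fold changes of 0.03, -0.08, 0.19, -0.01 and 0.18. Of these 7 paralogs and other genes tested, 0 were called at an adjusted or at an unadjusted p under 0.05 by limma.

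Retrocopies were lower in T2DM as a sum, though not each of them. The sum was 131, 108 and 113 FPKM in vehicle and 89.9, 102 and 82.8 FPKM in T2DM, with all T2DM libraries below all vehicle libraries. Of the 6 retrocopies, 1 was called lower, 4 were lower at an unadjusted p under 0.05 by limma, and 3 had separate groups, beside 1.7%, 4.57% and 6.1% of all genes. Their median log2 fold change was -0.39. Rpl36a-ps1 (chr14:98993870-98994318) was the single member called lower, at 6.74, 7.91 and 8.38 FPKM in vehicle and 5.07, 4.51 and 4.33 FPKM in T2DM (log2 fold change -0.62, SE 0.11, limma adjusted p = 0.0214). It stayed past the threshold under all 4 scalings and without 4 of the 6 libraries in turn, the exceptions being vehicle replicates 2 and 3. Its parent Rpl36a had 62.1 ± 3.13 and 70.4 ± 7.82 FPKM with overlapping groups (0.17, limma adjusted p = 0.262). Over 438 aligned bases of their GENCODE M21 transcripts, copy and parent were 98.4% identical with 7 mismatches, of which 4 fall into the 60 coding bases shown here in capitals.
Rpl36a, chrX:134586511-134586570, plus strand: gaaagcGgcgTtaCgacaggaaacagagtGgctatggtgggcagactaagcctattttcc
Rpl36a-ps1, chr14:98994132-98994191, minus strand: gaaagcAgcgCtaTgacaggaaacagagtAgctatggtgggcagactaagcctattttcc

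Most of such a transcript offers few bases by which a fragment could be placed. Rpl10-ps3 was identical to Rpl10 over 740 bases, and Rps12-ps3 to Rps12 over 494 bases, so their reads cannot be told apart from those of the parents within these bases, and their levels are uncertain. Rpl10-ps3 was at 83.2, 66.4 and 62.9 FPKM in vehicle and 54.7, 62.3 and 50.3 FPKM in T2DM, the reverse of the order of Rpl10 itself. Its log2 fold change was -0.34 (limma adjusted p = 0.119). Rps12-ps3 was at 28.5, 22.4 and 29.2 against 19.4, 23.3 and 15.8 FPKM with overlap (-0.44, limma adjusted p = 0.0999), beside 118 ± 7.13 and 123 ± 4.92 FPKM of Rps12. Rpl7a-ps5, a processed pseudogene in GENCODE M21 and 98.1% identical to Rpl7a over 792 bases, was at 2.62, 1.09 and 1.70 against 0.56, 0.98 and 0.35 FPKM. Its groups were separate, with a log2 fold change of -0.77 (limma adjusted p = 0.0608), beside 260 ± 15.8 and 292 ± 5.25 FPKM of Rpl7a. The remaining copies were not lower, but their levels are uncertain as well. Rpl27-ps3 was identical to Rpl27 over 411 bases, and Rpl9-ps6 had 1 mismatch to Rpl9 over 692 bases. Rpl27-ps3 had 7.28 ± 0.770 and 8.16 ± 0.922 FPKM (0.14, limma adjusted p = 0.408) and Rpl9-ps6 had 2.88 ± 0.775 and 2.87 ± 0.576 FPKM (0.00, limma adjusted p = 0.992), both with overlapping groups, and Rps27rt, an intronless copy of Rps27 without the -ps mark and therefore counted as a paralog, had 7.23 ± 1.18 and 8.38 ± 1.10 FPKM (0.19, limma adjusted p = 0.348), also overlapping. Without the retrocopies marked -ps, the cytosolic class had 0 lower calls.

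In the mitochondrial class the single call was Mrpl45 (chr11:97315716-97329920), a large subunit protein at the tunnel exit that anchors the ribosome to the inner membrane. It was at 5.57, 5.68 and 5.19 FPKM in vehicle and 8.13, 7.01 and 6.99 FPKM in T2DM, with a log2 fold change of 0.37 (SE 0.10, limma adjusted p = 0.0476). The groups were well separated, but the call was lost without any 1 of the 6 libraries and after median of ratios scaling (0.19, limma adjusted p = 0.164).

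Of the more abundant mitochondrial genes, some lay lower and others higher in every T2DM library. The latter included Mrpl34 (19.9 ± 1.32 and 21.5 ± 0.513 FPKM, log2 fold change 0.10) and Mrpl43 (19.5 ± 0.733 and 21.8 ± 0.681 FPKM, 0.15) of the large subunit, named after their values were seen, with limma adjusted p of 0.420 and 0.222. Mrps12, of the decoding centre of the small subunit, was at 28.3, 26.8 and 30.6 FPKM in vehicle and 24.3, 23.4 and 23.7 FPKM in T2DM (log2 fold change -0.25, SE 0.08, limma adjusted p = 0.0852). Mrpl18, a large subunit protein, was at 35.9, 33.2 and 31.7 FPKM in vehicle and 28.8, 28.8 and 27.4 FPKM in T2DM (-0.24, limma adjusted p = 0.0952). Mrpl12, the stalk protein that also binds the mitochondrial RNA polymerase, was at 21.3, 20.8 and 21.6 FPKM in vehicle and 19.8, 19.5 and 18.2 FPKM in T2DM (-0.14, limma adjusted p = 0.249). The groups did not overlap for Mrps12, Mrpl18 or Mrpl12, nor for Mrps15 of the small subunit, named after its values were seen, with 14.9 ± 0.920 and 12.4 ± 0.257 FPKM (-0.24, limma adjusted p = 0.0939). After median of ratios scaling these 4 of the 78 genes were called lower, beside 3.96% of all genes, with log2 fold changes of -0.45 for Mrps12, -0.43 for Mrpl18 and -0.33 for Mrpl12 and limma adjusted p of 0.0303, 0.0245 and 0.0437. Mrpl18 overlaps Tcp1 on the opposite strand.

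The largest mitochondrial fold change was that of Mrpl53, a large subunit protein without a bacterial counterpart, and it was the least certain. It was at 7.89, 3.71 and 8.19 FPKM in vehicle and 1.27, 5.82 and 1.39 FPKM in T2DM, with a log2 fold change of -1.13 and an SE of 0.44 (limma adjusted p = 0.125). One library of each group crossed over, vehicle replicate 2 and T2DM replicate 2. Without T2DM replicate 2 the gene was called lower.

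Besides Mrps12 and Mrpl12, the mitochondrial members chosen for their roles had log2 fold changes on both sides of 0, where the median of all genes was 0.16. The genes Mrps18a, Mrps18b and Mrps18c are related to the same bacterial ribosomal protein. Mrps18a had 7.06 ± 0.838 and 9.02 ± 1.14 FPKM (SD, n = 3, log2 fold change 0.31, limma adjusted p = 0.124), and Mrps18c had 12.6 ± 0.744 and 15.5 ± 1.86 FPKM (0.27, limma adjusted p = 0.122). Mrps18b had 8.58 ± 0.602 and 7.26 ± 1.49 FPKM (-0.23, limma adjusted p = 0.281), the opposite sign, and only Mrps18c had separate groups among these 3. Mrps16 and Mrps22, both mutated in human deficiencies of oxidative phosphorylation, had log2 fold changes of 0.13 and -0.05. Mrps7 and Mrpl11 had values of -0.01 and 0.06, Mrpl41 one of -0.22, and Mrpl54, named for its level, one of 0.08. All of these, with Mrps16 and Mrps22, had overlapping groups with limma adjusted p of 0.371 or more.

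Some ribosomal proteins have names that the rule does not match, and those given here were not called. Fau, whose product is a ubiquitin-like protein fused to a small subunit protein, had 216 ± 7.51 FPKM in vehicle and 269 ± 27.8 FPKM in T2DM with separate groups (SD, n = 3, log2 fold change 0.31, limma adjusted p = 0.0743). Rpsa, a small subunit protein also known as a laminin receptor, had 125 ± 6.71 and 127 ± 6.78 FPKM (0.02, limma adjusted p = 0.885), and Rack1, a scaffold on the small subunit head, had 69.7 ± 7.37 and 71.4 ± 3.33 FPKM (0.04, limma adjusted p = 0.816). Of the mitochondrial small subunit, Dap3 had 4.67 ± 0.0855 and 4.59 ± 0.551 FPKM and Ptcd3 had 3.89 ± 0.262 and 3.75 ± 0.459 FPKM, with log2 fold changes of -0.02 and -0.04. The groups of Rpsa, Rack1, Dap3 and Ptcd3 overlapped.

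The machinery around the ribosome was examined through lists. Of 59 genes of rRNA transcription and ribosome assembly, 3 were higher and 0 lower. They were Ncl and Npm1, abundant nucleolar proteins of rRNA processing and assembly, and Polr1c, a subunit shared by RNA polymerases I and III. Ncl went from 23.6 ± 1.2 to 31.9 ± 0.958 FPKM, Polr1c from 8.09 ± 0.255 to 10.9 ± 0.329 FPKM and Npm1 from 67.7 ± 3.92 to 85.7 ± 4.88 FPKM (SD, n = 3, log2 fold changes 0.42, 0.39 and 0.33, limma adjusted p = 0.0248, 0.0294 and 0.0451). Of 33 initiation factors, 3 were higher and 0 lower. These were Eif3f and Eif3e, subunits of the factor that holds the small subunit ready for mRNA, and Eif4b, a cofactor of the helicase that unwinds the mRNA leader. Eif3f went from 35.0 ± 4.42 to 54.1 ± 3.83 FPKM, Eif4b from 92.9 ± 8.48 to 122 ± 7.21 FPKM and Eif3e from 19.7 ± 0.812 to 24.9 ± 1.39 FPKM (0.62, 0.39 and 0.32, limma adjusted p = 0.0224, 0.0414 and 0.0473). The shares called higher in both lists were below or near the 10.5% of all genes, and their medians were 0.06 and 0.08. After median of ratios scaling, the lists had 0 and 1 higher calls and 2 and 2 lower calls, beside 3.93% of all genes called higher and 3.96% lower.

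Elongation and termination factors numbered 15, with 0 higher and 1 lower call, and this and the following counts stand beside 10.5% of all genes called higher and 1.7% called lower. The lower gene was Abce1, which splits ribosomes after termination, at 27.0 ± 0.752 FPKM in vehicle and 21.6 ± 1.05 FPKM in T2DM (SD, n = 3, log2 fold change -0.31, limma adjusted p = 0.0458). Of 19 genes through which growth signals act on ribosomal protein mRNAs, such as Mtor, Larp1 and Rps6kb1, 0 were called by limma, with 4 higher and 3 lower at an unadjusted p under 0.05, beside 28.5% and 4.57% of all genes. On the mitochondrial side, 37 translation factors had 0 higher and 1 lower call. The called gene was Tfb1m, which methylates the small rRNA of mitochondria, at 8.89 ± 0.380 FPKM in vehicle and 5.57 ± 0.913 FPKM in T2DM (-0.60, limma adjusted p = 0.0272). None of the 14 genes of mitochondrial DNA transcription and copy number was called, and 2 were higher at an unadjusted p under 0.05. The medians of these 4 lists lay between 0.06 and 0.11, under the 0.16 of all genes.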

How the data were processed

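Lacrimal gland poly(A) RNA of 3 vehicle and 3 T2DM libraries was analysed, grouped by the sample labels. Per the study's methods, cutadapt trimmed the reads, HISAT2 placed them on GRCm38, StringTie estimated abundance, and the authors computed the deposited gene-level FPKM with Ballgown. The labels also list human builds, but all 167 members were found in GENCODE M21 (GRCm38), 77 of 89 cytosolic and 72 of 78 mitochondrial genes with the same span. FPKM hold no counts, so the depth per library and counting intervals are not given, and errors are SDs between libraries.

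Genes whose mean reached 0.5 FPKM in either group (12135 of 12491) were tested two-sided on log2(FPKM + 1) with limma 3.58.1 (R 4.3.3, empirical Bayes with a trend, Benjamini-Hochberg over all genes, adjusted p under 0.05). A log2 fold change is a difference of group means on that scale and understates changes of low genes. The fit was run on data simulated from its own fitted spread, with changes larger than nearly all of those of the members. That run checks the working of the fit only and cannot show how small changes or library effects are handled. Sequences were read with Python 3.11.15 and aligned with Biopython 1.88, and plots used matplotlib 3.10.9. Genes named were, per class, those past the adjusted p (at most 6 per direction), the 3 highest in level, the largest rise and fall where none passed, paralogs and members fixed by role, and up to 3 called genes per list. Others are marked. Processed pseudogenes named for the cytosolic class number 292 and for the mitochondrial class 5 in GENCODE M21, and reads shared with them cannot be placed. Members, lists and tests were chosen with earlier results of these data known. Alternatives were other filters, pseudocounts, scalings, tests, members and a replicate block, and each library left out in turn.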

Additional observations from a re-analysis of the deposited data

How the results depend on the processing

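None of the 8 called genes changed direction under any alternative, whereas both class medians changed sign with scaling. Of the values of single named genes under all alternatives, 709 kept their side of the threshold, 86 fell short of it and 25 passed it newly. Only 8 of these 41 genes were called as deposited, so a kept side mostly means that an uncalled gene stayed uncalled. All 86 values that fell short belong to those 8 genes. Changes of membership do not refit single genes and could not move them. With 1 library left out in turn, Rpl36a-ps1 stayed called in 4 of 6 fits and Rps27 in 2. Rpl36, Rps28 and Rps25 stayed called in 1, and Rps19, Rpl23a and Mrpl45 in 0. As deposited, 6 cytosolic genes were higher and 1 lower, and 1 mitochondrial gene was higher and 0 lower, beside 10.5% and 1.7% of all genes. With median of ratios scaling the counts were 0 and 2 cytosolic and 0 and 4 mitochondrial, beside 3.93% and 3.96% of all genes. The class medians were then -0.0348 and -0.1281. With upper quartile scaling 0 cytosolic genes were higher and 1 lower, and 0 mitochondrial genes higher and 3 lower, beside 4.43% and 3.46% of all genes. The medians under this scaling were -0.0115 and -0.1055. Rescaling without the 10 most abundant genes gave 37 higher and 2 lower cytosolic and 14 higher mitochondrial genes, beside 27.6% and 1.42% of all genes. It gave medians of 0.2889 and 0.1527. The T2DM minus vehicle differences in share of summed FPKM were then 1.221 points for the cytosolic and 0.02957 for the mitochondrial class, against 0.6721 and 0.02092 as deposited. Rescaling without secretoglobins left 2 higher cytosolic and 0 higher mitochondrial genes, beside 6.86% of all genes, and a mitochondrial share difference of 0.00468. Without the filter or without the limma trend 0 mitochondrial genes were higher, beside 9.33% and 9.84% of all genes. A linear model without moderation called 0 of all genes. At an unadjusted p the counts were 28 and 4 cytosolic and 11 and 4 mitochondrial, beside 28.5% and 4.57% of all genes. With a fold of 1.5 added they were 0 and 2 and 0 and 1, beside 7.26% and 1.19% of all genes. Without retrocopies, an alternative chosen after seeing the data, 0 cytosolic genes were lower. The causes were not tested, except that a scaling moves all genes together.

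Leaving out 1 library at a time gave 0 to 6 higher and 0 to 1 lower cytosolic genes, 0 to 1 higher and 0 to 1 lower mitochondrial genes, medians of 0.1277 to 0.2223 and 0.0107 to 0.0765, a difference of medians of 0.091 to 0.1959, a ratio difference of 1.442 to 2.982, and share differences of 0.5618 to 0.8358 and 0.016 to 0.02559 points. The share of all genes called higher ran from 0.206% without vehicle replicate 3 to 7.31% without T2DM replicate 3. The share called lower ran from 0.132% to 1.07%. Same-numbered libraries did not deviate together over all genes tested (correlations 0.0322, 0.016 and -0.0022). With 3 libraries per group this cannot exclude a pairing, and the labels do not state one. The replicate block gave 0 higher and 0 lower cytosolic and 0 higher mitochondrial genes, beside 4.54% and 0.808% of all genes.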

Other observations

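Among the members just outside the threshold, named after their values were seen, several encode large subunit proteins of the cytosolic ribosome. Rpl3, which lies near the peptidyl transferase centre, was at 135, 123 and 118 FPKM in vehicle and 167, 155 and 151 FPKM in T2DM (log2 fold change 0.32, limma adjusted p = 0.0518). Rpl6 was at 145, 122 and 121 FPKM against 163, 165 and 161 FPKM (0.34, limma adjusted p = 0.0557), and Rpl28 at 146, 125 and 131 FPKM against 165, 165 and 169 FPKM (0.31, limma adjusted p = 0.0538). In all of these, vehicle replicate 1 was the highest vehicle library and the groups did not overlap, and Rpl6 and Rpl28 were called higher without that library.

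On the mitochondrial side, Mrps6 had the highest fold change, with 5.27, 4.28 and 5.30 FPKM in vehicle and 8.82, 8.31 and 5.66 FPKM in T2DM (log2 fold change 0.52, SE 0.16, limma adjusted p = 0.0742). T2DM replicate 3 lay close to the vehicle libraries, and the gene was called higher without it. Mrps35, the lowest member of its class in level, was at 1.61, 1.62 and 1.67 FPKM in vehicle and 2.44, 2.29 and 1.95 FPKM in T2DM, again without overlap (0.29, limma adjusted p = 0.0949).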
